A study of Mus musculus with 21 samples.

Results

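Hal, which encodes histidine ammonia-lyase, and 6 other genes on mouse chromosome 10, Elk3, Cdk17, Snrpf, Fgd6, Ndufa12 and Mrpl42, were followed in 21 RNA-seq libraries of CD11b+ cells from the peritoneal cavity. They were chosen as genes within 5 Mb of Lum whose level differed between libraries labelled Lum-/- and wild-type (WT) libraries. That difference chose them, so it is given below as a description and carries no test. They are 7 of 23544 genes in the deposited table, and all 7 averaged at least 1 TPM and entered the fits. TPM, the unit of the deposited table, is a transcript's share of its library corrected for its length, so levels can be compared between genes.

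The libraries labelled Lum-/- (6, lumican knockout) and Bgn-/- (6, biglycan knockout, of an X-linked gene) were set against 9 WT libraries, all on a C57BL/6 background. Cells labelled Lum-/- received recombinant lumican or no protein, cells labelled Bgn-/- received recombinant biglycan or no protein, and WT cells received lumican, biglycan or no protein. Each of these was combined with LPS, CpG DNA or no stimulus, and each combination has 1 library. LPS was given at 100 ng/mL and CpG at 1 µM for 6 h, and a protein given before a stimulus was added 1 h earlier at 10 µg/mL. For protein alone, neither dose nor time is given. All cells came from mice that had no eliciting agent, were selected on CD11b, kept overnight in culture and then moved to serum-free medium. The labels give 10 mice for the study and tie no library to an animal, so a genotype label and its cell preparation cannot be told apart. The spread behind each p-value is what remains between libraries once label and treatment terms are fitted. It is not a spread between animals.

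Lumican and biglycan belong to the small leucine-rich proteoglycans, matrix proteins that are known to bind partners of the Toll-like receptor pathway. LPS acts on TLR4 and CpG DNA on TLR9, and both receptors turn on inflammatory gene programs in macrophages. Histidine ammonia-lyase takes the first step of histidine breakdown, making urocanate, and is best known in liver and skin. Elk3 encodes an ETS-family partner of serum response factor, and Cdk17 a kinase of the PCTAIRE group. Snrpf encodes a protein of the Sm ring of spliceosomal RNPs, and Fgd6 an exchange factor for the small GTPase Cdc42. Ndufa12 encodes an accessory subunit of respiratory complex I, and Mrpl42 a protein of the mitochondrial ribosome.

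RNA of Lum or Bgn did not follow the labels in some libraries, and whether a knockout allele still gives transcript was not tested. Lum itself was higher in the 6 libraries labelled Lum-/-, at 0.823 to 14.1 TPM, than in matched WT libraries, where it reached at most 1.403 TPM. Bgn was at 0.758 to 3.49 TPM in 5 of the libraries labelled Bgn-/- and at 0 TPM in the other, which received only biglycan, against 0.327 to 1.52 TPM in WT libraries. In libraries labelled Lum-/-, Bgn was at 0 to 0.263 TPM in 5 and at 1.72 TPM in the untreated one. In libraries labelled Bgn-/-, Lum was at 0 to 0.134 TPM in 5 and at 1.0998 TPM with biglycan alone. The gene that a label names as knocked out was thus detected in all 6 libraries labelled Lum-/- and in 5 of 6 labelled Bgn-/-, so a label below is a name and not a checked genotype. By median absolute log2 difference over 2582 genes, 1 of all 210 pairs of libraries was closest, at 0.0635. By Pearson r it was not the closest, at 0.989 against up to 0.993 in other pairs. This pair, called the closest pair below, was untreated cells labelled Lum-/- and cells labelled Bgn-/- that received only biglycan. These 2 libraries had the fewest transcripts above 0, at 39608 and 39597, against 50214 to 58759 in the other libraries, and Arg1, the arginase of alternatively activated macrophages, was at 688 and 601 TPM there and at most 67.2 TPM elsewhere (a gene named after its values were seen). The table holds no read counts, so depth is unknown. Results are given for all 21 libraries as labelled and again without these 2, where that changes them. The untreated WT library also stood apart. Mast cell markers other than Hdc (6 genes) summed to 3.45 TPM there, against 64.6 to 115 TPM in the other 8 WT libraries, 7.57 to 10.6 TPM in libraries labelled Lum-/- and 2.55 to 8.45 TPM in those labelled Bgn-/-. Macrophage markers (9 genes) summed to at least 11577 TPM in every library.

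The genes lie on the low-coordinate side of Lum, which starts at position 97565128 of chromosome 10 (GRCm38, GENCODE vM21). Cdk17 (93160875 to 93267071, plus strand) starts 4.40 Mb away, and Elk3 (93247414 to 93311135, minus strand), which starts 4.25 Mb away, overlaps its 3′ end. Hal (93488768 to 93519304, plus strand) and Snrpf (93583029 to 93589706, minus strand) start 4.08 and 3.98 Mb from Lum. Fgd6 (94036001 to 94145339, plus strand) and Ndufa12 (94198720 to 94221443, plus strand) start 3.53 and 3.37 Mb away. Mrpl42 (95480805 to 95501940, minus strand) is the nearest at 2.06 Mb. The kit marks strand, but how the authors' quantification used strand is not given in the sources used here, so reads in the overlap of Cdk17 and Elk3 may not be separated.

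The promoters of Hal and Elk3 are shown because these are the 2 genes that were higher under the Lum-/- label. Both are the 250 bases before the RefSeq start (GRCm38.p6), 5′ to 3′ on the gene's strand, with Hal at chr10:93488518-93488767 (plus strand) and Elk3 at chr10:93311160-93311409 (minus strand). Capitals mark the CCAAT box, the TATA box (searched as TATAAA) and, as the longest runs in Elk3, a loose NF-kB motif of 10 letters, of which 4 may be any base.
Hal: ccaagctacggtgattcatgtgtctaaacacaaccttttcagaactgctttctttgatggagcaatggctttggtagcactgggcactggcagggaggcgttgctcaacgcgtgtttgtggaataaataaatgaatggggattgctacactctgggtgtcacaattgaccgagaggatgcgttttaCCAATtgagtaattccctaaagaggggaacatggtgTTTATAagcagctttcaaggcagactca
Elk3: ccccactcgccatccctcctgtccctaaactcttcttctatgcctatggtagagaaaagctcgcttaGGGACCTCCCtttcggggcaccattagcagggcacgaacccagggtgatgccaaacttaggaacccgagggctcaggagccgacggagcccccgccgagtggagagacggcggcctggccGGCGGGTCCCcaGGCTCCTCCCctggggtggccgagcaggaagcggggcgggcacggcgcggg
Hal held the CCAAT box and, nearer its start, the TATA box on the opposite strand, printed here as its reverse complement. Elk3 held neither, and had 4 matches to the loose NF-kB motif, with 1 stretch matched on both strands. The Hal stretch was 45.6% G or C and the Elk3 stretch 67.2%. Among the 6 genes with a promoter entry (Cdk17 had none), the CCAAT box was found in 4, the TATA box in 1, the loose NF-kB motif in 1 and the ETS core GGAA in 6. Over all 32851 promoters of this length, 33.8% held the CCAAT box, 12.4% the TATA box, 17.6% the loose NF-kB motif and 93.4% GGAA. A strict NF-kB site, an interferon response motif and a longer ETS site were found in 0 of the 6, and in 0.14%, 2.98% and 2.88% of all promoters. All motifs were searched on both strands, and the Elk3 matches to the loose NF-kB motif overlap no other motif marked here.

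Hal was the gene with the largest absolute difference of all 11763 genes tested between the Lum-/- label and WT. In libraries labelled Lum-/- it was at 92.3 and 88.2 TPM with LPS, 359 and 447 with CpG and 258 and 182 with no stimulus (with, then without lumican). In WT libraries it was at 7.59, 7.37 and 6.80 TPM with LPS, 28.2, 28.6 and 27.1 with CpG and 22.4, 24.3 and 4.44 with no stimulus (with lumican, with biglycan, without protein). The lowest library labelled Lum-/- thus lay above the highest WT library. Under the Bgn-/- label it was at 0.297 and 0.324 TPM with LPS, 2.36 and 1.46 with CpG and 183 and 2.59 with no stimulus (with, then without biglycan). Apart from the biglycan-alone library, all of these lay below the lowest WT library. The order of levels was therefore Lum-/- label, WT, Bgn-/- label, with 1 exception.

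The Lum-/- label minus WT difference of Hal was 4.04 ± 0.61 on the log2(TPM + 1) scale (SE of the additive limma fit over 21 libraries), and 3.74 ± 0.31 without the closest pair. The matched WT library held 6.06% to 8.71% of the Hal level of the library labelled Lum-/- in 5 treatments and 2.44% in the untreated one. Lum in WT was likewise at 8.25% to 19.5% of its level under the Lum-/- label in those 5 treatments and listed at 0 untreated. The bulk libraries cannot tell more cells with Hal from more Hal RNA per cell. Mast cell markers other than Hdc were higher in 8 of the 9 WT libraries than under either label, as given above, and their part in the Hal levels was not tested. Fibroblast and mesothelial markers (8 genes) summed to 4.13 to 5.09 TPM under the Lum-/- label and 3.28 to 4.98 TPM under the Bgn-/- label. In WT they summed to 1.27 TPM in the untreated library and 5.71 to 8.60 TPM in the others, above every library of either label. Krt19 was at 0 under both labels, and the part of these markers in the Hal levels was not tested.

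**Figure D1:**
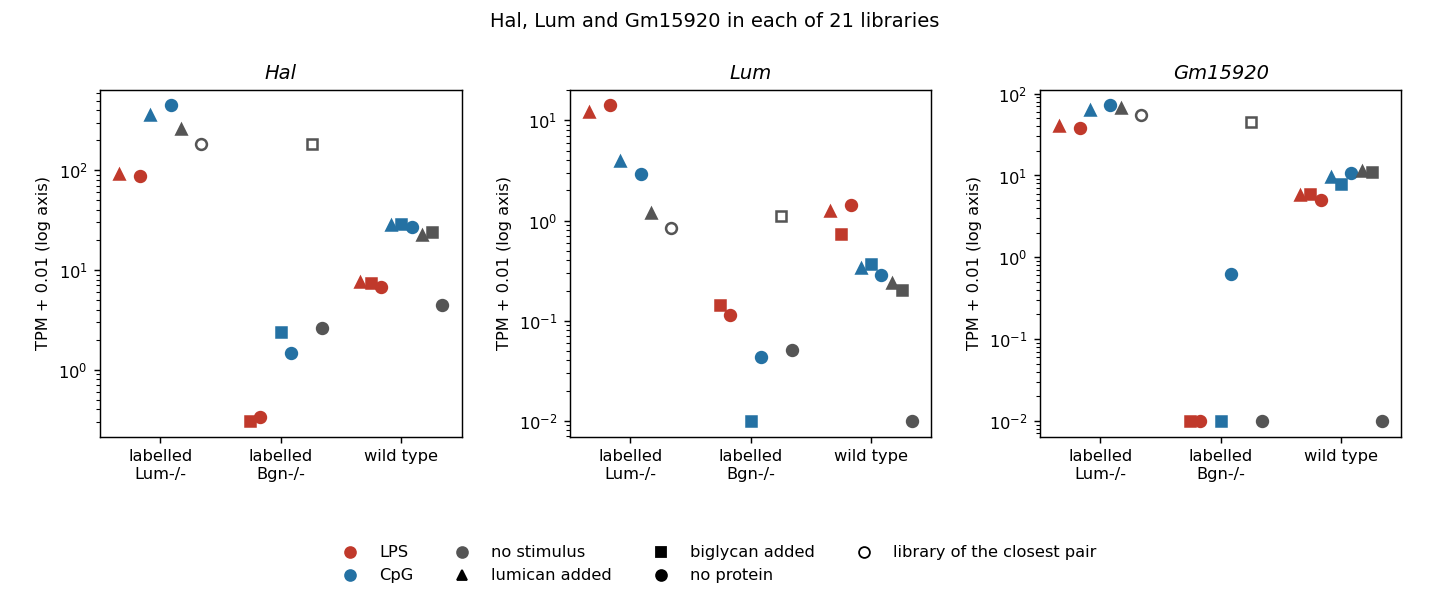
TPM + 0.01 on a log axis for Hal, Lum and Gm15920 in each of 21 libraries (1 point each), by genotype label, coloured by stimulus and shaped by added protein, with open symbols for the closest pair of libraries. Hal sits at 88.2 to 447 TPM under the Lum-/- label and at 4.44 to 28.6 TPM in wild type, and the open square is the biglycan-alone library labelled Bgn-/-, at 183 TPM.

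The gene whose profile was most like that of Hal was Gm15920, a processed pseudogene annotated on chromosome 5 (130188395 to 130188796), far from Lum. Its log2(TPM + 1) had a Pearson r of 0.965 with Hal over the 21 libraries and 0.960 over 19, given as a description. It was at 38.4 to 71.8 TPM in libraries labelled Lum-/-, and at 0 TPM in 4 of the libraries labelled Bgn-/-, 0.612 in that with CpG and 44.6 in that with biglycan alone. In WT it was at 0 TPM untreated and 5.06 to 11.4 TPM in the other 8 libraries. The next genes were Serpinh1 (r = 0.909), which encodes a collagen chaperone, and Folr2 (0.905), a folate receptor gene of resident macrophages. Fcna (0.905), which encodes a ficolin, and Apoe (0.897) followed. Serpinh1 was at only 0.235 to 2.39 TPM, near the filter of 1 TPM on the mean. Of 11762 genes, Elk3 ranked at 90 (r = 0.62) and Lum at 117 (r = 0.61), while Ndufa12 (r = -0.31), Cdk17 (-0.17), Fgd6 (-0.14) and Snrpf (-0.07) had negative values and Mrpl42 had an r of 0.23. Over 19 libraries r was -0.45 for Fgd6 and 0.12 for Mrpl42.

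Elk3 was the other gene that was higher under the Lum-/- label. It was at 56.3 and 51.2 TPM with LPS, 82.0 and 87.5 with CpG and 43.2 and 49.1 with no stimulus in libraries labelled Lum-/- (with, then without lumican). In the matched WT libraries it was at 52.3 and 41.9 TPM with LPS, 63.6 and 58.0 with CpG and 36.3 and 29.3 with no stimulus. It was higher in 6 of 6 matched treatments, by 0.40 ± 0.12 on the log2 scale, and by 0.34 ± 0.09 without the closest pair. Across all treatments the levels of the groups overlapped, at 43.2 to 87.5 TPM under the label and 29.3 to 64.0 TPM in WT.

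Ndufa12 had the largest lower value of the 7 genes. In libraries labelled Lum-/- it was at 20.8 and 19.5 TPM with LPS, 42.7 and 50.04 with CpG and 39.8 and 44.1 with no stimulus (with, then without lumican). In the matched WT libraries it was at 39.0 and 46.6 TPM with LPS, 75.1 and 78.9 with CpG and 58.0 and 80.1 with no stimulus. Within each stimulus every library labelled Lum-/- was below every WT library, and the difference was -0.84 ± 0.08 (log2), or -0.83 ± 0.08 without the closest pair. Among 36 complex I subunit genes tested, Ndufa12 differed most, and the next were Ndufb2 (-0.36) and Ndufa3 (-0.36). Of the 36, 12 passed the threshold in this contrast, all lower, where 3.7% of all genes tested were lower, and the list median was -0.16 against -0.04 over all genes.

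The remaining 4 genes were lower by smaller amounts. Cdk17 ranged over 6.43, 8.70 and 10.9 TPM (lowest, median and highest) under the Lum-/- label and over 7.69, 13.1 and 17.2 TPM in WT, and was lower in 6 of 6 matched treatments with a difference of -0.45 ± 0.08 (log2). Snrpf ranged over 16.4, 24.7 and 34.8 TPM under the label and 20.6, 31.5 and 47.5 TPM in WT, lower in 6 of 6 matched treatments with a difference of -0.36 ± 0.08. Both ranges overlapped between the label and WT. Fgd6 ranged over 7.79, 10.1 and 21.6 TPM under the label, with the highest in the untreated library, and 11.5, 13.9 and 19.7 TPM in WT. Mrpl42 ranged over 7.98, 47.3 and 77.3 TPM under the label and 11.9, 56.7 and 64.4 TPM in WT. Their differences were -0.25 ± 0.10 for Fgd6 and -0.21 ± 0.10 for Mrpl42, and without the closest pair -0.37 ± 0.08 and -0.34 ± 0.07. Across matched treatments, Fgd6 was higher under the label in untreated cells (0.34) and lower in the others. Mrpl42 was higher in untreated cells (0.26), near WT with lumican alone (0.02) and lower with LPS or CpG.

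**Figure D2:**
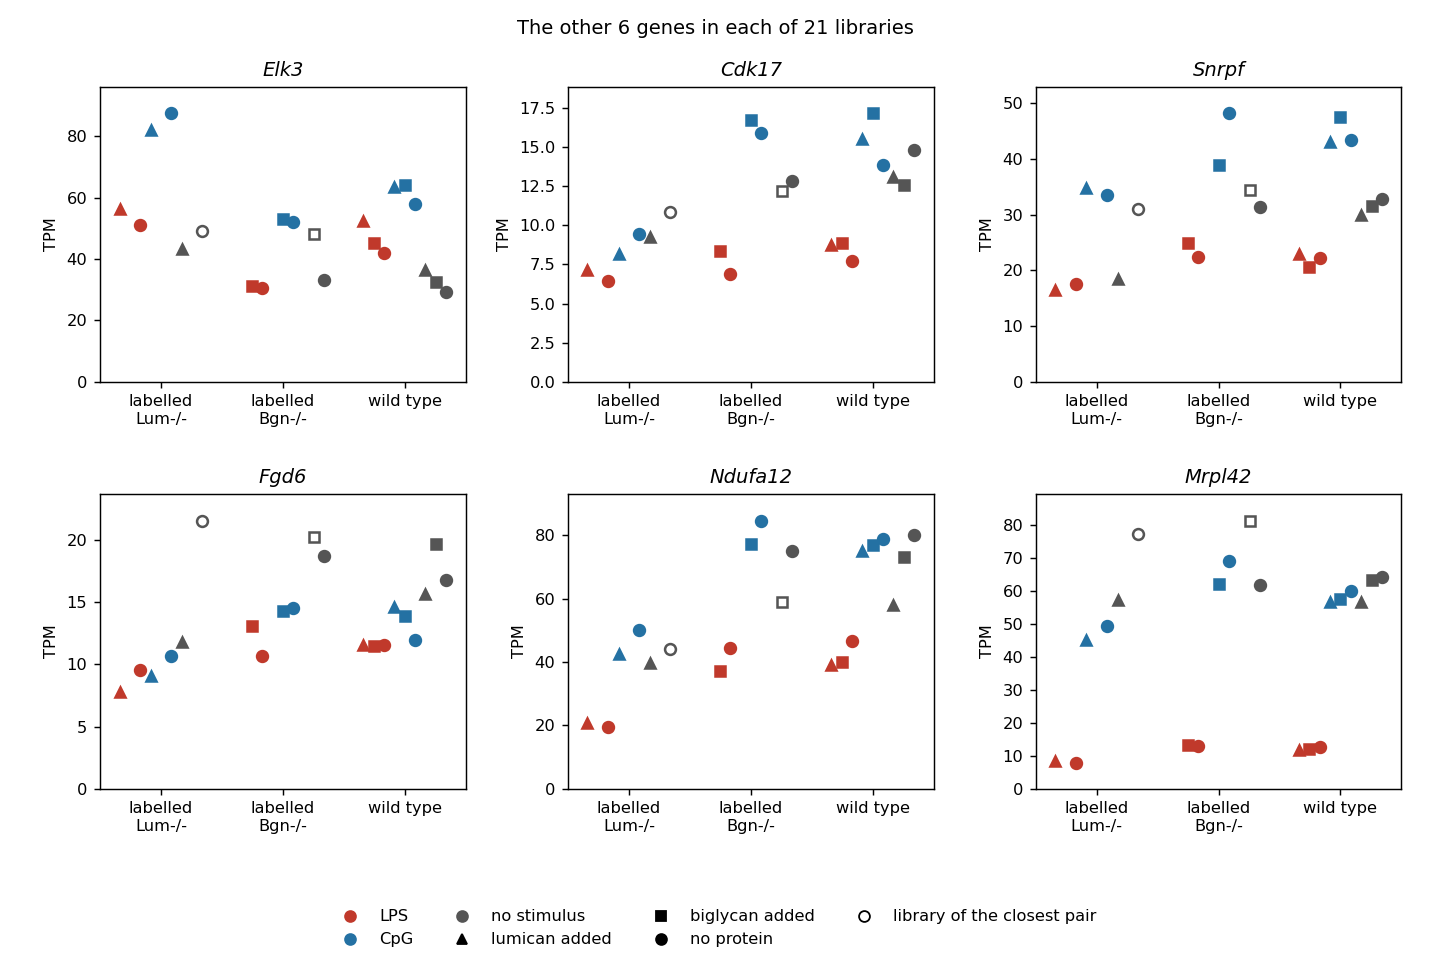
TPM of Elk3, Cdk17, Snrpf, Fgd6, Ndufa12 and Mrpl42 in each of 21 libraries (1 point each) by genotype label, coloured by stimulus and shaped by added protein, with open symbols for the closest pair of libraries. Within each stimulus Ndufa12 was lower in every library labelled Lum-/- than in every wild-type library, and Mrpl42 was lowest in the LPS libraries of each label, at 7.98 to 13.2 TPM.

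At a Benjamini-Hochberg adjusted p under 0.05 in limma, 4 of the 7 genes passed in this contrast (Hal higher, Cdk17, Snrpf and Ndufa12 lower), against 5.34% of all genes tested (1.64% higher, 3.7% lower). Without the closest pair all 7 passed (2 higher, 5 lower), against 10.6% of all genes (3.05% higher, 7.52% lower). Nothing can be read from these counts, because the contrast chose the genes. Around Lum, 31 other genes were tested within 5 Mb, of which these 4 passed (12.9%). Without the closest pair, 9 of the 30 of them still above the filter passed (30%). Of these, 8 of 22 lay on the low-coordinate side of Lum, where all 7 described genes are, and 1 of 8 on the high-coordinate side. The 2 that are not among the 7 are Lta4h, which encodes leukotriene A4 hydrolase and lies next to Hal (-0.31), and 4930430F08Rik (-0.50). Without the closest pair, the genes just inside the threshold were Lta4h and Elk3 (0.34), and just outside were Metap2 (-0.30), Dusp6 (0.29) and Nedd1 (-0.23), given as log2 differences with no test. Dcn, the decorin gene that neighbours Lum, had a difference of -0.42 ± 0.21, which did not pass with or without the pair. Without the untreated WT library as well, the difference was -0.58 ± 0.11 and passed. That library was left out after the data were seen, so no test is read from this. The nearest tested genes beyond 5 Mb, Tmpo (-6.38 Mb) and Tmtc2 (8.01 Mb), had differences of -0.06 and -0.02. On the rest of chromosome 10, 6.46% of tested genes passed, and 10.0% without the pair. The 7 genes are among those counted near Lum, and this contrast chose them. The shares by position and by side of Lum are therefore a description, and nothing can be read from their differences.

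**Figure D3:**
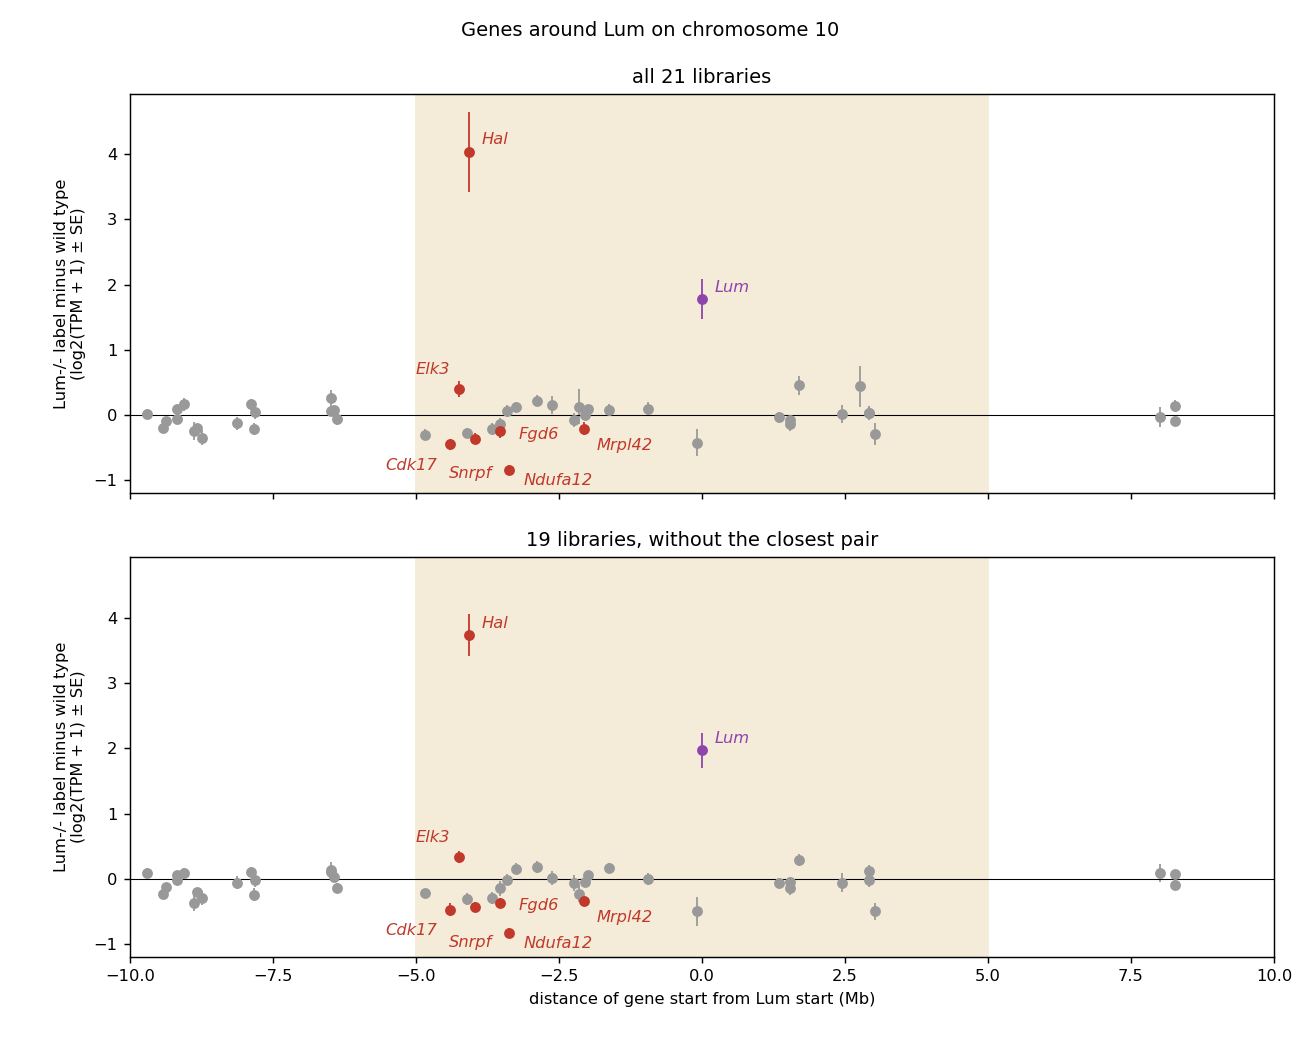
Lum-/- label minus wild-type difference in log2(TPM + 1) with its SE (limma) for genes tested within 10 Mb of the start of Lum, by distance of the gene start in Mb, with all 21 libraries above and without the closest pair below. Red points are the 7 genes, purple is Lum, grey are other tested genes and the shaded band spans 5 Mb on each side. Hal stands at 4.04 and 3.74, and the other red points lie between -0.84 and 0.40.

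The Bgn-/- label was compared with WT over 6 matched treatments, a contrast that did not choose the genes. It uses the same 9 WT libraries as the contrast that chose them, so it is not independent of that choice. With all 21 libraries 0 of the 7 genes passed (limma, Benjamini-Hochberg adjusted p under 0.05), as did 0.213% of all genes tested (25, with 881 at an unadjusted p under 0.05). Hal was lower in 5 of 6 matched treatments and had a difference of -1.74 ± 0.61 (log2, limma adjusted p = 0.493). Without the closest pair, Hal fell by 2.57 ± 0.31 (limma adjusted p = 0.00158), while 0.668% of genes were called lower. The 5 remaining libraries averaged 1.41 ± 1.085 TPM of Hal, against 17.4 ± 10.5 TPM in the 9 WT libraries (SD). Without the untreated WT library as well, Hal fell by 3.02 ± 0.17 (limma adjusted p = 4.43e-06) and Elk3 by 0.38 ± 0.07 (0.0272), with 1.06% of genes called lower. That fit matches the Bgn-/- label with WT in LPS and CpG libraries only. The untreated pair, which it leaves out, differed by -0.60 for Hal.

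The other genes showed small differences under the Bgn-/- label. With all 21 libraries, Elk3 had a difference of -0.15 (95% confidence interval -0.41 to 0.11), Cdk17 -0.07 (-0.26 to 0.12) and Ndufa12 -0.05 (-0.22 to 0.12). Snrpf was at 0.01 (-0.17 to 0.19), Fgd6 at 0.03 (-0.20 to 0.26) and Mrpl42 at 0.12 (-0.12 to 0.35). Of the 31 tested genes within 5 Mb of Lum, 0 passed under the Bgn-/- label, and 1 of 30, Hal, without the pair.

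LPS lowered 6 of the 7 genes and raised 0 over 7 matched pairs (limma adjusted p under 0.05), where 71.6% of all genes tested were lower, 14% higher and 85.6% passed in all. The median difference of all genes was -0.71 (log2), and scaling the libraries by the median of ratios brought it to -0.07. Mrpl42 had the largest fall of the 49 mitochondrial large ribosomal subunit genes tested. It was at 7.98 and 8.60 TPM with LPS in libraries labelled Lum-/-, 12.9 and 13.2 TPM in those labelled Bgn-/- and 12.6, 11.9 and 12.1 TPM in WT. Without a stimulus it was at 77.3 and 57.2 TPM in libraries labelled Lum-/-, 62.0 and 81.4 TPM in those labelled Bgn-/- and 64.4, 56.6 and 63.4 TPM in WT. The groups did not overlap, and Mrpl42 fell by 2.44 ± 0.10 (limma adjusted p = 5.37e-11), or by 1.74 after scaling. In that list 45 genes fell and 2 rose, with a median of -0.92, and Mrpl34 (-2.27) and Mrpl28 (-1.83) came next.

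Hal fell by 2.16 ± 0.60 with LPS (limma adjusted p = 0.00393), by 1.22 ± 0.32 without the closest pair and by 1.56 after scaling. In the libraries without protein alone the difference was -0.65 ± 0.89 and did not pass (limma adjusted p = 0.51). The fall was seen in 6 of 7 pairs. In the pair of untreated and LPS-treated WT libraries the difference was 0.52, where the untreated library is the one with low mast cell markers, and in the biglycan pair labelled Bgn-/- it was -7.15, against the library of the closest pair. The other 5 pairs lay between -1.59 and -1.03. Among enzymes of histidine metabolism, 3 of 8 listed genes were tested. Hdc, which makes histamine from histidine, rose by 4.90 ± 0.40 (limma adjusted p = 4.39e-08), and Hnmt, which inactivates histamine, fell by 2.12 ± 0.18 (5.29e-08). The next enzymes of histidine breakdown were near 0, with Uroc1 at most 0.0245 TPM and Amdhd1, which lies just beyond the 3′ end of Hal, at most 0.0570 TPM in any library.

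The other falls with LPS were smaller or near the shift of all genes. Ndufa12 fell by 0.79 ± 0.07, Fgd6 by 0.64 ± 0.10, Cdk17 by 0.57 ± 0.08 and Snrpf by 0.46 ± 0.08 (limma adjusted p of at most 8.49e-05), each in 7 of 7 pairs. After scaling, Ndufa12 was at -0.07, Fgd6 at 0.05, Cdk17 at 0.10 and Snrpf at 0.25 (limma adjusted p = 0.00916), so none of these 4 passed as lower once the shift of all genes was removed. Elk3 had a difference of 0.17 ± 0.11 (limma adjusted p = 0.166), and rose by 0.33 ± 0.09 (0.00425) without the closest pair, when 14.8% of all genes rose, and by 0.90 ± 0.11 after scaling. Its most abundant transcript alone gave -0.20 (limma adjusted p = 0.074). All 36 complex I genes fell with LPS, with a median of -1.12, and Ndufa12 ranked 33 by size. All 7 Sm core genes tested fell, with a median of -0.71, and all 5 tested of the Fgd and Cdc42 list fell, with a median of -0.89 and the largest fall in Fgd4 (-3.05). Over all genes 71.6% were lower and the median was -0.71, so the Sm list moved as the median gene did.

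CpG raised Elk3 and Snrpf and lowered Fgd6, and the other 4 genes did not pass (limma adjusted p under 0.05), where 35.9% of all genes passed (14.6% higher, 21.3% lower). Elk3 was at 87.5 and 82.0 TPM with CpG in libraries labelled Lum-/-, 52.0 and 53.0 TPM in those labelled Bgn-/- and 58.0, 63.6 and 64.0 TPM in WT. Without a stimulus it was at 49.1 and 43.2 TPM, 33.0 and 48.1 TPM, and 29.3, 36.3 and 32.4 TPM in the same order of labels. It was higher in 7 of 7 pairs, by 0.74 ± 0.11 (log2, limma adjusted p = 0.000305). Its relatives Elk1 (-0.11) and Elk4 (-0.23) did not pass. Snrpf rose by 0.48 ± 0.08 (limma adjusted p = 0.000498), in 7 of 7 pairs, and 5 of the 7 Sm core genes tested rose, with a median of 0.20. Fgd6 fell by 0.43 ± 0.10 (limma adjusted p = 0.005), in 7 of 7 pairs. Hal had a difference of -0.45 ± 0.60 (limma adjusted p = 0.588) with all libraries and 0.50 ± 0.32 (0.236) without the closest pair. Without the untreated WT library as well, the Hal difference was 0.16 ± 0.17. Hal was higher with CpG in every pair labelled Lum-/- or WT. In the pairs labelled Bgn-/- it was lower, by -0.54 without protein and by -5.78 against the biglycan-alone library of the closest pair. Cdk17 (0.15), Ndufa12 (0.19) and Mrpl42 (-0.21) had limma adjusted p-values of 0.167, 0.0627 and 0.13.

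**Figure D4:**
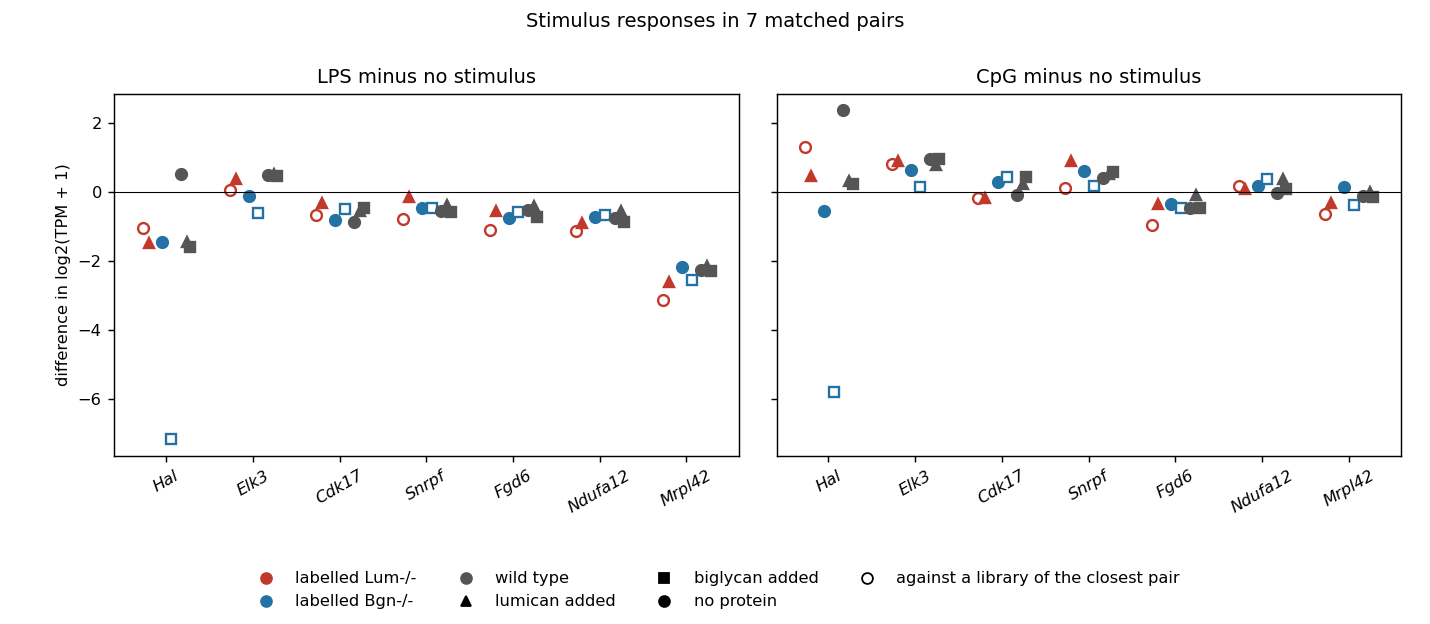
Difference in log2(TPM + 1) between a stimulated library and the unstimulated library of the same label and protein, with LPS on the left and CpG on the right, for 7 matched pairs of each of 7 genes, coloured by label and shaped by protein, with open symbols where the unstimulated library is one of the closest pair. Mrpl42 lies between -3.12 and -2.16 with LPS, Elk3 lies above 0 in all 7 pairs with CpG, and the lowest Hal points, at -7.15 and -5.78, are from the biglycan pairs labelled Bgn-/-.

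Whether the response to a stimulus differed between the Lum-/- label and WT was tested with a genotype-by-stimulus term, and 0 of the 7 genes passed for LPS or CpG, as did 0% of all genes (1445 and 821 at an unadjusted p under 0.05). Of the 7, Mrpl42 had the smallest adjusted p with LPS, where its response differed by -0.71 ± 0.17 (limma adjusted p = 0.278). Leaving out the lumican-alone library of either the Lum-/- label or WT brought it to -0.87. The unstimulated comparison then rests on the untreated libraries of the Lum-/- label and WT, which each stand apart. Without the closest pair the Mrpl42 value was -0.52 ± 0.14. Hal had -1.32 (95% confidence interval -3.75 to 1.12) for LPS and -0.91 (-3.35 to 1.52) for CpG, and without the closest pair 0.00 (-0.65 to 0.65) and 0.41 (-0.24 to 1.06).

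Added lumican and added biglycan changed 0 of the 7 genes and 0% of all genes (limma; 1218 and 1054 genes at an unadjusted p under 0.05). Lumican minus no protein was 0.61 ± 0.61 for Hal (log2, limma adjusted p = 0.757) and -0.20 ± 0.08 for Ndufa12 (0.406), and the other 5 lay between -0.17 and 0.12. Biglycan minus no protein was 1.28 ± 0.61 for Hal (limma adjusted p = 0.568) and 0.45 ± 0.31 (0.480) without the closest pair. In cells with LPS or CpG, Hal differed by at most 0.45 between any library given a protein and its match without it. In unstimulated cells it was higher with protein in 4 of 4 pairs, at 258 and 182 TPM with and without lumican under the Lum-/- label, 183 and 2.59 TPM with and without biglycan under the Bgn-/- label, and 22.4 with lumican, 24.3 with biglycan and 4.44 TPM without in WT. Each of these pairs includes 1 of the 3 libraries that stand apart. Without those 3, the fitted difference of Hal was -0.12 ± 0.18 for lumican and 0.00 ± 0.17 for biglycan. No label then keeps an unstimulated pair with and without protein, so this fit cannot say whether the rise in unstimulated cells remains.

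Hal TPM was spread over 3 transcripts, ENSMUST00000129421.7 (37.4% of the gene over 21 libraries), annotated as protein coding, ENSMUST00000016031.13 (33.9%), annotated for nonsense-mediated decay, and the noncoding ENSMUST00000152883.1 (27.4%). Without the closest pair these shares were 38.9%, 32.5% and 27.02% under the Lum-/- label and 39.5%, 33.6% and 26.1% in WT. Snrpf had 1 transcript, and 1 transcript held 94.6% of Mrpl42. The Elk3 transcript ENSMUST00000223340.1 was at 0 TPM in all 9 WT libraries, at 19.5 and 15.4 TPM in the 2 libraries of the closest pair, and at most 3.76 TPM elsewhere. The main coding transcript of Elk3 (ENSMUST00000008542.11) held 44.1% of the gene under the Lum-/- label and 50.4% in WT without the pair. The short Cdk17 transcript ENSMUST00000213378.1 was at 0 TPM in all 12 libraries labelled Lum-/- or Bgn-/- and in 6 WT libraries, and reached 1.35 TPM in the other 3.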

How the data were processed

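RNA sequencing libraries of CD11b+ peritoneal cells came from a stranded TruSeq kit, per the labels' protocols. The authors deposited 1 table of TPM per transcript, made with kallisto 0.44.0 after bcl2fastq 1.8.4 on GRCm38, per the submitters' processing notes. TPM divides out length and library total, so a change in a few abundant genes moves all others. The table names 89562 transcripts, of which 6774 have no gene name. Of these, 5423 were matched by ID to GENCODE vM21, and 1351 (5350.9 to 7550.7 TPM per library) were left out.

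TPM was summed per gene (23544 genes). The 11763 genes averaging 1 TPM or more entered limma (3.58.1, R 4.3.3) as log2(TPM + 1). The additive model held genotype label and 9 treatments (10 residual degrees of freedom), with a trended eBayes prior, two-sided p-values and Benjamini-Hochberg adjustment over all genes at 0.05. The response comparison added a genotype-by-stimulus term (6 residual degrees of freedom). Fold changes of low genes are understated on this scale. With 1 library per combination the repeats are matched treatments. Named genes are the 7 genes, Lum, Bgn, tested genes within 5 Mb of Lum and the nearest beyond, the 5 genes most like Hal and at most 3 of each gene list by size of change. Arg1, Uroc1 and Amdhd1 were named after their values were seen. The genes and lists were chosen with earlier results of these data known. Promoters are from RefSeq (GRCm38.p6), and 6 of 7 genes matched. The fit was tested on simulated data. Alternatives were a pseudocount of 0.1, a mean of at least 5 TPM or no filter, median-of-ratios scaling, the most abundant transcript, robust eBayes, no-protein libraries only, leaving out each library, and leaving out 2 or 3 libraries. Other steps used pandas 2.3.3 and numpy 2.4.6 under Python 3.11.15, with figures from matplotlib 3.10.9.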

Additional observations from a re-analysis of the deposited data

Results flagged for a closer look

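Among 21 groups of libraries checked (7 genes in 3 labels), 1 held a library far from its group. With biglycan alone under the Bgn-/- label, Hal was at 183 TPM, against at most 2.59 TPM in the other 5, a gap of 0.795 of the group's range on the log2(TPM + 1) scale. The criterion is Dixon's 95% critical value, which marks about 1 group in 20 by chance where a group holds repeats of 1 condition. The libraries of each group here differ in stimulus and protein, so that rate does not apply.

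In 5 cases every matched pair of one label moved one way and every pair of another label moved the other way. None of these differences was tested. The CpG response of Hal was higher under the Lum-/- label than under the Bgn-/- label by 4.05 (log2(TPM + 1)), and under the Bgn-/- label it was lower than in WT, with a difference of -4.13. These pairs include the 3 libraries that stand apart. The LPS response of Elk3 differed by 0.58 between the Lum-/- and Bgn-/- labels and by -0.86 between the Bgn-/- label and WT. Against the libraries of the closest pair, its response was -0.61 under the Bgn-/- label and 0.06 under the Lum-/- label. In the other pair of each label it was -0.11 and 0.38. The CpG response of Cdk17 differed by -0.53 between the Lum-/- and Bgn-/- labels, and its pairs also include the closest pair of libraries.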

How the results depend on the processing

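Without the closest pair of libraries, the count of the 7 genes passing under the Lum-/- label was 7, against 4 with all libraries, and under the Bgn-/- label 1, against 0. Without the untreated WT library as well (chosen after the data were seen), the counts were 7 and 2. Leaving out 1 library at a time gave 3 to 6 genes under the Lum-/- label, 0 to 1 under the Bgn-/- label, 6 to 7 for LPS, 3 to 5 for CpG, 0 to 1 for added biglycan and 0 to 1 for the LPS response. Leaving out the biglycan-alone library of either the Bgn-/- label or WT gave a Hal difference of -2.59 under the Bgn-/- label, past the threshold. With the WT library left out, the fit gives the remaining biglycan-alone library a term of its own. Without that WT library, added biglycan gave 2.25 and CpG -1.35 for Hal, both past the threshold. Under the Lum-/- label Snrpf missed the threshold when any of 8 single libraries was left out, and with no filter. Median-of-ratios scaling turned the LPS differences of Cdk17 to 0.10, Snrpf to 0.25 and Fgd6 to 0.046, by moving the median of all genes. The LPS difference of Hal was -0.65 with no-protein libraries only, and its call was lost. In 70 of 1624 gene values the sign changed with no call either way. No paired analysis was possible because the labels give no replicate numbers to use as a block. Libraries are matched across labels by the treatment term alone. Depth is unknown and no group is replicated, which limits every value here.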
